A study of Mus musculus with 18 samples.

Results

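The 44 genes described here encode the machinery that copies DNA in S phase. They are the rows of the gene count table whose symbol stood in a list of 44, and all 44 were found among the 24047 rows. The members were chosen with earlier results of these data known, so the shares of all genes given beside them are a description. The list was divided by role into 12 genes of the helicase and its licensing, 8 polymerase and primase subunits, 6 genes of the sliding clamp and its loader, 5 for single-stranded DNA and Okazaki fragments, 5 for nucleotide supply, 4 for copying chromatin and DNA methylation, and 4 drivers of the G1/S transition. The data were RNA-seq counts of crypts isolated from the colon of C57BL/6 mice, in 18 libraries that form 6 groups of 3. Both WT and Ern2-/- mice (deletion of Ern2, which encodes the epithelial stress sensor ERN2, also called IRE1β) were sampled conventionally raised (CONV-WT, CONV-Ern2-/-), germ free (GF-WT, GF-Ern2-/-) and germ free until given a cecal microbiota 14 days earlier (COLONIZED-WT, COLONIZED-Ern2-/-). The study asked how microbes and ERN2 shape the crypt epithelium. The labels give no ages and do not say whether the 3 libraries of a group came from separate mice. The study plots RNA-seq values of colon epithelial cells of CONV mice by individual mouse, but does not tie that plot to these libraries. COLONIZED-WT, GF-Ern2-/-, COLONIZED-Ern2-/- and CONV-WT each held libraries with and without Y-linked transcripts (below), so none of them came from a single mouse. The spread between libraries that p-values measure may be technical in GF-WT and CONV-Ern2-/-, each of one Y pattern, and partly technical in the other groups.

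Before S phase, origins of replication are licensed by loading of the MCM2-7 ring, for which CDC6 and CDT1 are needed. Cyclin E and E2F transcription factors then drive cells across the G1/S boundary, helicases unwind the DNA, and polymerases α, δ and ε copy it with the PCNA clamp and its loader. In the colon, these transcripts belong to the dividing cells of the lower crypt, whose daughters leave the cycle, differentiate and replace the cells of the upper crypt and surface.

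Library totals ranged from 5865619 to 23154481 counts, and the lowest count of any of the 44 genes in any library was 18. The 3 lowest totals were all of CONV libraries: CONV-WT 3 with 8198204 counts, CONV-Ern2-/- 2 with 7084267 and CONV-Ern2-/- 3 with 5865619. The epithelial label held, with 10 epithelial genes together at 10915 to 15432 CPM (counts scaled to one common library total), against 8.41 to 27.7 for 15 immune genes, 14.9 to 40.0 for 12 mesenchymal genes and 1.32 to 7.33 for 6 endothelial genes. Ern2 itself was not absent from the libraries labelled Ern2-/- (levels of single genes are normalized counts, which are counts divided by size factors from DESeq2). Ern2 stood at 2573, 1909 and 2439 normalized counts for GF-WT, 2695, 2412 and 2331 for COLONIZED-WT and 3099.7, 3100.3 and 2089 for CONV-WT. Ern2 stood at 2877, 386 and 3336 (GF-Ern2-/-), 2567, 1324.5 and 1885 (COLONIZED-Ern2-/-) and 998, 1622 and 1487 (CONV-Ern2-/-) for the other genotype. GF-Ern2-/- 1 and 3 lay above all 3 GF-WT libraries and GF-Ern2-/- 2 far below them, and all CONV-Ern2-/- libraries below all CONV-WT libraries. On the log2 scale Ern2 differed by -1.02 ± 0.29 (SE, adjusted p = 0.013) between the CONV groups, -0.07 ± 0.82 between the GF groups and -0.37 ± 0.21 between the COLONIZED groups, none of these past the threshold of 0.01, so Ern2-/- below means the library labelled Ern2-/-. Which exons the deletion removes was not given in the sources used here, so the count of the whole gene is a limited check of the labels. Y-linked transcripts were present in no GF-WT library, in all 3 CONV-Ern2-/- libraries, in 1 of CONV-WT and in 2 of each other group, so sex and group are partly confounded.

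The share of the library taken by the 44 genes was higher in WT crypts with microbes than in WT crypts without. The 44 genes summed to 1154, 1328 and 924.8 CPM for GF-WT, to 2578, 2064 and 2436 for COLONIZED-WT, and to 2418, 2219 and 1989 for CONV-WT. For the other genotype these sums came to 1394, 1198 and 1354 (GF-Ern2-/-), 2268, 2295 and 2434 (COLONIZED-Ern2-/-), and 1601, 1373 and 1290 (CONV-Ern2-/-). All 9 libraries of COLONIZED-WT, COLONIZED-Ern2-/- and CONV-WT lay above all 9 of the other 3 groups. Group means (± SD, n = 3) were 1136 ± 202 in GF-WT, 1315 ± 104 in GF-Ern2-/-, 1421 ± 161 in CONV-Ern2-/-, 2209 ± 215 in CONV-WT, 2332 ± 89.2 in COLONIZED-Ern2-/- and 2359 ± 265 in COLONIZED-WT. Neighbours within the lower 3 overlapped, as did those within the upper 3. The ratio of means was 2.08 for COLONIZED-WT over GF-WT, 1.94 for CONV-WT over GF-WT, 1.77 for COLONIZED-Ern2-/- over GF-Ern2-/- and 0.644 for CONV-Ern2-/- over CONV-WT. In bulk samples such as these, fewer cycling cells and less of this RNA per cell cannot be told apart.

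**Figure D1:**
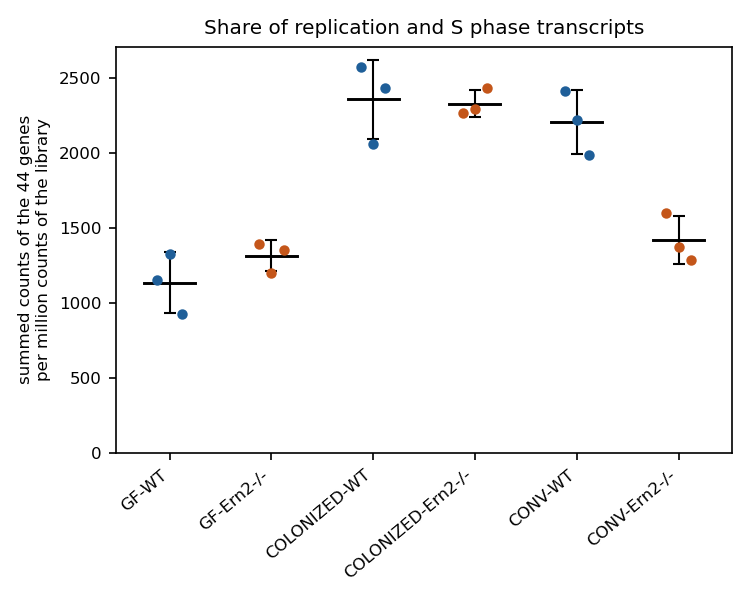
Summed CPM of the 44 replication and S phase genes (vertical axis) in the 6 groups, with 1 point per library (blue WT, orange Ern2-/-) and bars at the mean ± SD (n = 3). The 3 groups at the top, COLONIZED-WT, COLONIZED-Ern2-/- and CONV-WT, lie between 1989 and 2578, and the other 3 groups between 924.8 and 1601.

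Without a sex covariate, colonization of germ-free WT mice was followed by the most calls of the 9 comparisons. With that covariate, both counts against GF-WT in this paragraph were much lower, and COLONIZED-Ern2-/- against GF-Ern2-/- had the most (values below). The covariate fits against GF-WT rest on few libraries of the same Y pattern, so this order may reflect precision. In COLONIZED-WT against GF-WT, 40 of the 44 genes rose and none fell, where 9.13% of the 13893 genes tested rose (DESeq2, adjusted p under 0.01), and edgeR's quasi-likelihood test called 26 (4.94% of all genes in either direction). The log2 fold change was positive for all 44, with a median of 1.07 against -0.01 over all genes tested, and 42 genes had every COLONIZED-WT library above every GF-WT library, as did 22.9% of all genes. The 4 that did not pass were Gmnn, Prim2, Rpa3 and Ccne2. The comparison of CONV-WT with GF-WT went the same way, with 29 higher and 0 lower beside 5.56% of all genes higher, a median of 1.01, and 39 without overlap (17.9% of all genes). edgeR called none of the 44 here (0.175% of all genes), although 41 had an unadjusted p under 0.05 and the lowest adjusted p was 0.018. The count was 16 with a library total covariate (the 3 CONV-WT totals lay below the 3 GF-WT totals), 10 without CONV-WT 2, 13 without CONV-WT 1, 13 without GF-WT 1, 14 without GF-WT 3 and 38 without CONV-WT 3. These comparisons share the GF-WT libraries, as do all others below that name the same group.

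In Ern2-/- mice genes rose after colonization too, and none passed between CONV and GF. In COLONIZED-Ern2-/- against GF-Ern2-/-, 21 genes rose and 0 fell (3.62% of all genes rose), the median log2 fold change was 0.67 with all 44 positive, and 40 genes did not overlap (16.4% of all genes higher). By edgeR 2 were called (0.216% of all genes) and 39 had an unadjusted p under 0.05, and without COLONIZED-Ern2-/- 3 or GF-Ern2-/- 1 the DESeq2 count was 13 or 14. In CONV-Ern2-/- against GF-Ern2-/-, none of the 44 passed by DESeq2 or edgeR (4.36% of all genes passed in either direction). An unadjusted p under 0.05 was reached by 4 higher (9.19% of all genes) and 2 lower (10.5%), edgeR had 6, and the median was 0.21. Of the 44, 30 were positive, 12 were higher without overlap (11.6% of all genes) and 2 were lower without overlap (13.1%).

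Markers of other crypt cells moved in these comparisons as well. Of all genes tested, 9.13% rose and 8.75% fell in COLONIZED-WT against GF-WT. These shares were 5.56% and 5.14% in CONV-WT against GF-WT, and 3.62% and 3.6% in COLONIZED-Ern2-/- against GF-Ern2-/-. Of 10 surface colonocyte genes, 3 fell in COLONIZED-WT against GF-WT (8 of 10 negative, median log2 fold change -1.501), 4 in CONV-WT against GF-WT (8 of 10 negative, median -1.99) and 6 in COLONIZED-Ern2-/- against GF-Ern2-/- (9 of 10 negative, median -1.30). Summed CPM of these genes overlapped all the same, at 2825, 9452 and 13763 (GF-WT) beside 7227, 8119 and 14379 (COLONIZED-WT), and at 3676, 29847 and 6326 (GF-Ern2-/-) beside 8510, 13160 and 15784 (COLONIZED-Ern2-/-). Of 9 crypt stem genes tested, all were positive in both WT comparisons, where 2 rose in COLONIZED-WT and 1 in CONV-WT, and 4 were positive in COLONIZED-Ern2-/- against GF-Ern2-/-, where 2 rose. Sums over all 10 stem genes did not overlap between GF and COLONIZED, at 1086, 984.1 and 815.5 (GF-WT) beside 1617, 1159 and 1353 (COLONIZED-WT), and at 973.5, 621.6 and 963.8 (GF-Ern2-/-) beside 1080, 1407 and 1199 (COLONIZED-Ern2-/-). In CONV-WT these sums were 1536.5, 1637 and 609, so CONV-WT and GF-WT overlapped. Of 11 goblet genes, 6 rose and 2 fell in COLONIZED-WT against GF-WT, 3 rose and 2 fell in CONV-WT against GF-WT, and 3 rose and 1 fell in COLONIZED-Ern2-/- against GF-Ern2-/-. Goblet sums of 23737 to 30109 in COLONIZED-WT lay above those of 13663 to 20558 in GF-WT, while the range of 10890 to 21153 in COLONIZED-Ern2-/- overlapped that of 6988 to 15756 in GF-Ern2-/-. Of 12 mesenchymal genes, 10 were tested in CONV-WT against GF-WT, of which 9 were positive (median 3.65), 2 rose and 1 fell, with summed CPM of 17.4, 16.7 and 34.4 (CONV-WT) beside 29.7, 23.9 and 26.5 (GF-WT). In COLONIZED-WT against GF-WT no mesenchymal gene passed, and in COLONIZED-Ern2-/- against GF-Ern2-/- 1 mesenchymal and 1 endothelial gene fell. The part of these markers in the higher values of the 44 genes was not tested.

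Between the 2 CONV groups, most of the genes were lower in CONV-Ern2-/-. The study's KI67 staining of distal colon went the other way, with longer crypts and a wider KI67-positive zone in CONV-Ern2-/- mice. That is protein in tissue sections, while the values here are RNA of isolated crypts, and how the measures relate was not tested. In CONV-Ern2-/- against CONV-WT the median log2 fold change of the 44 was -0.61, against 0.02 over all genes tested, and 26 genes had every CONV-Ern2-/- library below every CONV-WT library, as did 11.5% of all genes. Of all 44, Gins2, Prim2 and Chaf1b fell by the DESeq2 test (1.87% of all genes fell), and 27 had an unadjusted p under 0.05 in that direction (9.11% of all genes). edgeR called none of the 44 and 0 of all 12128 genes it tested, with 25 of the 44 under an unadjusted 0.05. The DESeq2 count of 3 was 12 in a fit over all 18 libraries, 0 with a sex covariate, 0 or 1 without any 1 of the CONV-Ern2-/- libraries, CONV-WT 1 or CONV-WT 2, and 6 without CONV-WT 3. Against COLONIZED-Ern2-/-, CONV-Ern2-/- libraries had 10 of the genes lower and 0 higher (3.62% of all genes lower), a median of -0.61, and 33 without overlap (18% of all genes lower). Those called were Mcm3, Mcm4, Mcm5, Mcm6, Cdc6, Prim2, Pole2, Pcna, Rrm1 and Uhrf1. By edgeR none of the 44 passed (0.282% of all genes did), and 34 were under an unadjusted 0.05. The DESeq2 count was 0 with a sex covariate, 23 without CONV-Ern2-/- 1 and between 0 and 3 without any 1 of the other 5 libraries.

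Other things differed between these groups too. Summed CPM of 10 surface colonocyte genes were 32082, 21339 and 28606 in CONV-Ern2-/-, 3111, 6471 and 20189 in CONV-WT, and 8510, 13160 and 15784 in COLONIZED-Ern2-/-. Those of 10 crypt stem genes were 912, 552 and 525 in CONV-Ern2-/-, 1537, 1637 and 609 in CONV-WT, and 1080, 1407 and 1199 in COLONIZED-Ern2-/-. The 11 goblet genes summed to 4239 to 5600 in CONV-Ern2-/- and to 43945, 39075 and 6701.5 in CONV-WT. CONV-WT 3 was closer to the CONV-Ern2-/- libraries than to the other CONV-WT libraries in all 3 marker lists, and its total was low as well. In the share of the 44 genes it was the lowest CONV-WT library but still above all 3 CONV-Ern2-/- libraries. Of 10 mesenchymal genes tested in CONV-Ern2-/- against COLONIZED-Ern2-/-, 9 were positive (median log2 fold change 2.90) and 2 rose, as did 1 of 2 endothelial genes (4.75% of all genes rose). Their summed CPM were 14.9, 27.4 and 34.1 for mesenchymal and 7.33, 3.25 and 3.92 for endothelial genes in CONV-Ern2-/-, beside 17.0 to 23.0 and 1.495 to 1.73 in COLONIZED-Ern2-/-. In CONV-Ern2-/- against CONV-WT none of either list passed. GF-Ern2-/- 2, the library with the lowest Ern2 level, had a surface colonocyte sum of 29847 against 3676 and 6326 in the other GF-Ern2-/- libraries. With a library total covariate, 2 genes were called in CONV-Ern2-/- against CONV-WT and 0 in CONV-Ern2-/- against COLONIZED-Ern2-/-, and without the 3 libraries of low total, which leaves CONV-Ern2-/- as 1 library assumed to vary like the other group, these counts were 1 and 0. The part of cell makeup in these differences was not tested.

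**Figure D2:**
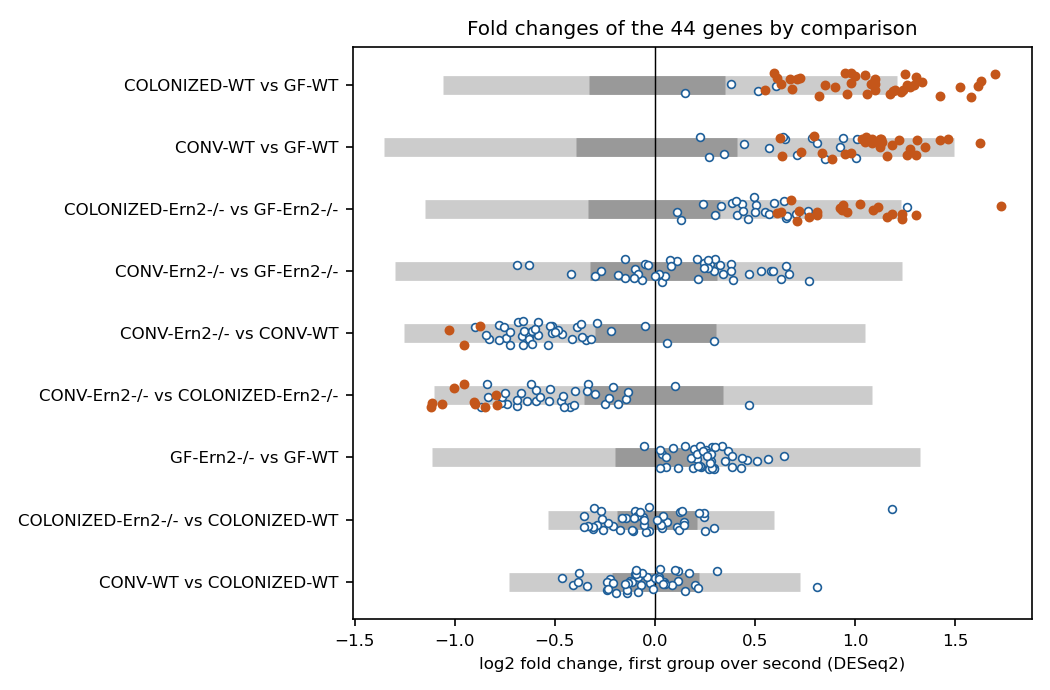
Log2 fold changes (horizontal axis, DESeq2) of the 44 genes in the 9 comparisons, 1 point per gene, filled orange where adjusted p is under 0.01 and open blue otherwise. Grey bars span the 5th to 95th (light) and 25th to 75th (dark) percentile of all genes tested, and the 44 genes lie to the right of zero in the upper 3 rows and mostly to the left in the 2 comparisons led by CONV-Ern2-/- against CONV-WT and COLONIZED-Ern2-/-.

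The remaining pairs gave no calls. None of the 44 passed in GF-Ern2-/- against GF-WT by DESeq2 or edgeR (0.0349% of all genes passed), and an unadjusted p under 0.05 was reached by 2 genes, both higher (0.559% of all genes), or 3 by edgeR. The fold changes there were small but mostly of one sign, with 43 of 44 positive, a median of 0.26 and 7 genes without overlap, all higher (2.88% of all genes were higher without overlap). None passed in COLONIZED-Ern2-/- against COLONIZED-WT with either tool (1.36% of all genes passed), the median was -0.06, and an unadjusted p under 0.05 was reached by 1 higher (12.8% of all genes) and 5 lower (9.23%), or 6 by edgeR. CONV-WT against COLONIZED-WT also gave none with either tool (0.117% of all genes passed), with a median of -0.08, 1 higher (4.68% of all genes) and 1 lower (4.21%) at an unadjusted 0.05, and 2 by edgeR.

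Whether the response to microbes differed by genotype was tested with an interaction term. For CONV against GF, the term was negative for all 44 genes (a lower log2 fold change of CONV over GF in the libraries labelled Ern2-/-, where 14 of the 44 were negative), with a median of -0.88 on the log2 scale against -0.02 over all genes tested. None passed the adjusted threshold with DESeq2 or edgeR (0.178% of all genes passed), while 30 had an unadjusted p under 0.05 with a negative term, against 5.38% of all genes, and edgeR had 29. Without CONV-WT 3 the DESeq2 count was 3. The lowest adjusted p were those of Mcm6, with a term of -1.26 ± 0.32 (SE, adjusted p = 0.027), Chaf1b, with -1.13 ± 0.29 (SE, adjusted p = 0.031), and Rfc3, with -1.07 ± 0.28 (SE, adjusted p = 0.033). For COLONIZED against GF the median term was -0.30, 39 of 44 were negative, none passed with either tool (0.028% of all genes passed), and 7 had an unadjusted p under 0.05, all negative, against 3.29% of all genes. edgeR also had 7.

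The GF-WT libraries showed no Y-linked transcripts, so the comparisons were repeated within libraries of one Y pattern. Of libraries without Y-linked transcripts, the single COLONIZED-WT library was above the mean of the 3 GF-WT libraries for 44 of 44 genes (47.2% of all genes tested), with a median log2 ratio of 0.91. The mean of the 2 CONV-WT libraries of that kind was above the GF-WT mean for all 44 (51.0% of all genes), with a median of 0.93. The genes varied together (below), so the count for COLONIZED-WT rests on a single library and not on 44 separate values. Of libraries with Y-linked transcripts, the 2 COLONIZED-Ern2-/- had a mean above that of the 2 GF-Ern2-/- for 43 genes (49.5% of all genes), with a median of 0.63. The mean of the 3 CONV-Ern2-/- libraries was below the only such CONV-WT library for 42 genes (49.2% of all genes), with a median of -0.76, but that library, CONV-WT 1, was the highest of its group for 26 of the 44. The CONV-Ern2-/- mean was also below that of the 2 COLONIZED-Ern2-/- libraries with Y-linked transcripts for 42 genes (50.7% of all genes), with a median of -0.57. With sex as a covariate in DESeq2, fewer genes were called in every comparison that had calls. Against GF-WT, such a fit leaves the group difference to the libraries without Y-linked transcripts, 1 of COLONIZED-WT and 2 of CONV-WT. For CONV-Ern2-/- against CONV-WT it leaves the difference to the 1 CONV-WT library with them. Lost precision and a part of sex in the lower counts cannot be told apart. In COLONIZED-WT against GF-WT the count went from 40 to 12 (1.14% of all genes then rose), in CONV-WT against GF-WT from 29 to 13 (3%), and in COLONIZED-Ern2-/- against GF-Ern2-/- from 21 to 19 (3.65%). No call was left in CONV-Ern2-/- against COLONIZED-Ern2-/- (1.93% of all genes then fell) or against CONV-WT (0.638%).

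The levels of the genes varied together across libraries. Over the 18 libraries, the correlation (Pearson's r) of each gene's log2 level with the mean of the other members had a median of 0.90 and was above 0.8 for 35 of 44. It was highest for Mcm7 (0.98) and lowest for Rpa3 (0.35), Rfc2 (0.54), E2f2 (0.56) and Ccne2 (0.63). Within groups the correlation ran from -0.16 (Chaf1a) to 0.92 (Mcm7). The 18 libraries share the group differences and the depths given above, so the correlations are a description. The lowest group mean was that of GF-WT for 37 genes, CONV-Ern2-/- for 6 and GF-Ern2-/- for 1 (Ccne1), and the highest was that of COLONIZED-WT for 18, COLONIZED-Ern2-/- for 13, CONV-WT for 11 and CONV-Ern2-/- for 2 (Rfc2 and E2f2). Within groups, single libraries stood apart over most of the genes: GF-WT 2 was the highest of its group for 40 of 44, COLONIZED-WT 2 the lowest for 37, and GF-WT 3 and CONV-WT 3 the lowest for 31 each.

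**Figure D3:**
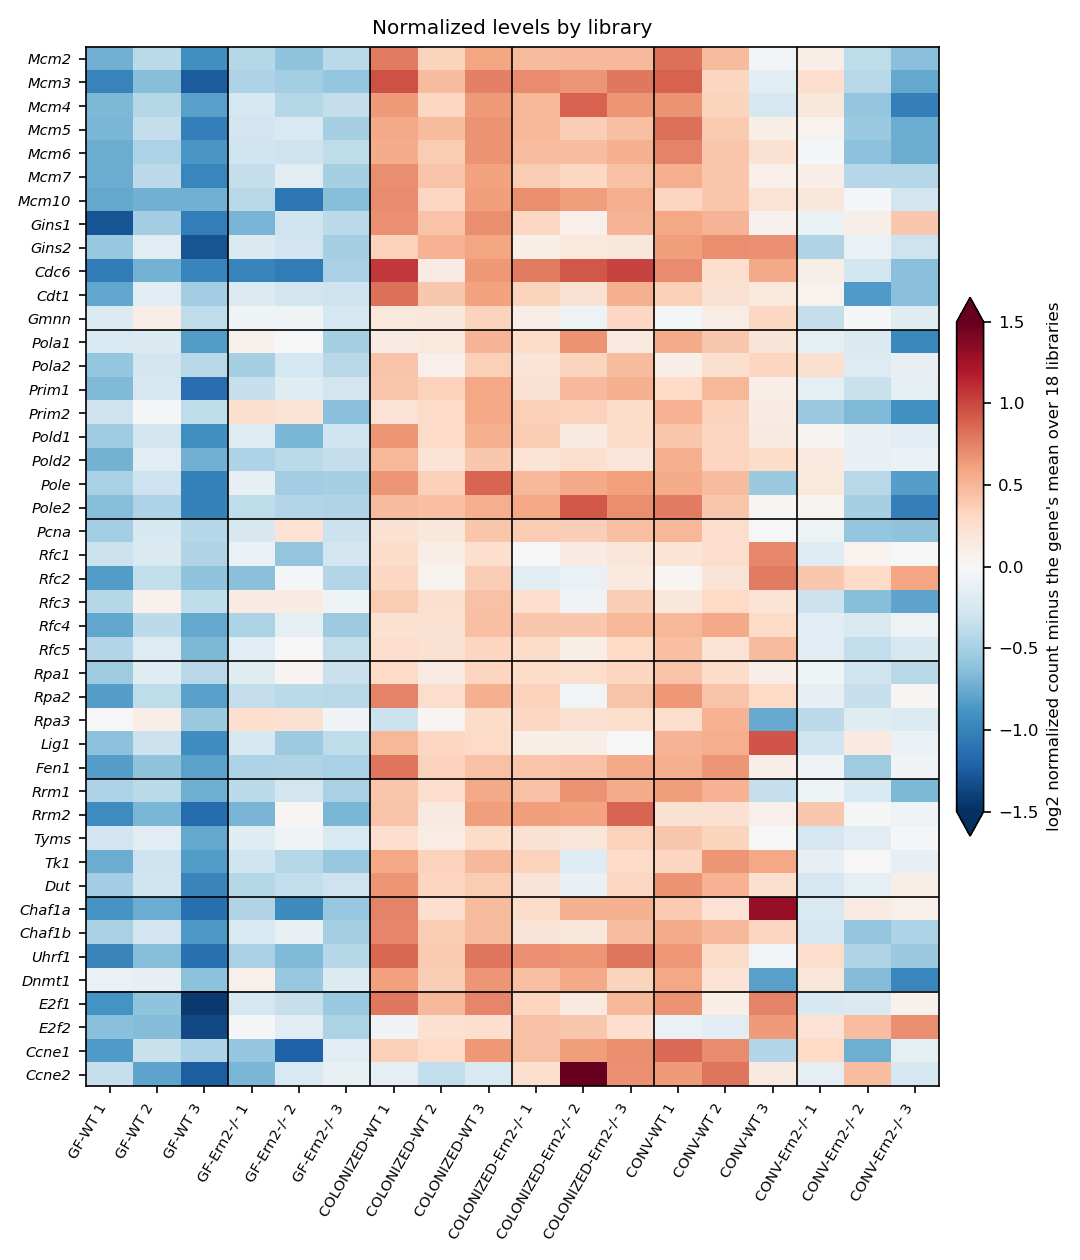
Log2 normalized count of each of the 44 genes (rows, grouped by role) in each of the 18 libraries (columns, grouped by state and genotype), relative to the gene's mean over all libraries. The GF-WT columns are blue in most rows and the COLONIZED columns red, with the paler columns of CONV-Ern2-/- and the uneven column of CONV-WT 3 to the right.

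Many replication genes are known targets of E2F factors, and the sequences before the starts were searched for 4 words of the E2F site, TTTCCCGC, TTTCGCGC, TTTGCCGC and TTTGGCGC, on both strands. Windows of 300 bases (250 before and 50 after the start, RefSeq, GRCm38.p6) were at hand for 36 of the 44 genes, in 45 windows. A word was found in 14 of these 45 windows, in 14 of the 36 genes, and in 2.26% of the 32851 windows of all genes. A CCAAT word was in 25 of the 45 windows, with 37.4% of all windows holding it, and TTTGAA, the word of the cell cycle element CHR, in 5 of the 45, with 17.9% of all. A match is a description of the letters and not of binding. In 8 genes, all of which rose in COLONIZED-WT against GF-WT, an E2F word lay before the start, and for all of these but Dnmt1 30 bases around it follow, read 5′ to 3′ on the strand of the gene, with the words in capitals.
Mcm5 (chr8:75109347-75109376, plus strand): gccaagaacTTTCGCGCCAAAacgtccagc
Mcm6 (chr1:128359795-128359824, minus strand): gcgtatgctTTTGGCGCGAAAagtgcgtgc
Mcm7 (chr5:138172030-138172059, minus strand): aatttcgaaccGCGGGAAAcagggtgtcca
Cdc6 (chr11:98908002-98908031, plus strand): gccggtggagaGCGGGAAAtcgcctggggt
Pola1 (chrX:93632275-93632304, minus strand): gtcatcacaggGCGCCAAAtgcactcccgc
Rfc3 (chr5:151651209-151651238, minus strand): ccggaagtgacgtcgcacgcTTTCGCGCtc
Uhrf1 (chr17:56304117-56304146, plus strand): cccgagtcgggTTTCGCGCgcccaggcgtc
In Mcm5 and Mcm6 the capitals hold overlapping words on both strands, which begin 153 and 110 bases before the start. A further word of Mcm6, TTTGGCGC, 47 bases before the start, is outside the stretch shown. The first base of the word is 165 bases before the start in Mcm7, 138 in Cdc6, 138 in Pola1, 10 in Rfc3 and 185 in Uhrf1, counted from the RefSeq start of that window. For Mcm7, Cdc6, Rfc3 and Uhrf1 this start lies inside the bounds of the annotated gene, which reach to a start further out. No such word was in the windows of Mcm2, Mcm10, Fen1, Rrm2 or Chaf1a, which rose as well.

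The helicase and licensing genes were the largest of the 7 roles and gave the most calls. Of these 12, 11 rose in COLONIZED-WT against GF-WT (median log2 fold change 1.25), 9 in CONV-WT against GF-WT (1.12) and 9 in COLONIZED-Ern2-/- against GF-Ern2-/- (0.79), and 5 fell in CONV-Ern2-/- against COLONIZED-Ern2-/- (-0.75). The shares of all genes tested were 9.13%, 5.56% and 3.62% higher and 3.62% lower, in that order. MCM2 to MCM7 form the ring that becomes the replicative helicase. Mcm3 lies at chr1:20802968-20820312 on the minus strand (GRCm38). Mcm3 stood at 354, 455 and 299.9 normalized counts for GF-WT, 1380.5, 991 and 1203 for COLONIZED-WT and 1317, 889.9 and 634 for CONV-WT. Mcm3 stood at 515, 498 and 476 (GF-Ern2-/-), 1161, 1126 and 1229.7 (COLONIZED-Ern2-/-) and 846, 533 and 419 (CONV-Ern2-/-) for the other genotype. Every COLONIZED and CONV-WT library lay above every GF library, and the CONV-Ern2-/- values ran into the range of both. Mcm3 rose in COLONIZED-WT against GF-WT (log2 fold change 1.70 ± 0.20, SE, adjusted p = 9.3e-15) and in COLONIZED-Ern2-/- against GF-Ern2-/- (1.24 ± 0.16, adjusted p = 3.4e-12). A rise in CONV-WT against GF-WT passed as well. Mcm3 fell in CONV-Ern2-/- against COLONIZED-Ern2-/- (log2 fold change -0.95 ± 0.26, SE, adjusted p = 0.0046). It had the highest fold change of the 44 in COLONIZED-WT against GF-WT.

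The other subunits were lowest in GF or in CONV-Ern2-/-. Mcm5 lies at chr8:75109569-75128439 on the plus strand (GRCm38). Mcm5 stood at 596, 751 and 472 normalized counts for GF-WT, 1425, 1340.5 and 1530.5 for COLONIZED-WT and 1698, 1261 and 1019 for CONV-WT. Mcm5 stood at 785, 817 and 682 (GF-Ern2-/-), 1354, 1237 and 1309.9 (COLONIZED-Ern2-/-) and 1000.4, 655 and 574 (CONV-Ern2-/-) for the other genotype. GF-WT and COLONIZED-WT did not overlap, and the 3 CONV-Ern2-/- libraries lay below the 3 CONV-WT libraries. Mcm5 rose in COLONIZED-WT against GF-WT (log2 fold change 1.25 ± 0.19, SE, adjusted p = 1.6e-09) and in CONV-WT against GF-WT (1.12 ± 0.29, adjusted p = 0.002). A rise in COLONIZED-Ern2-/- against GF-Ern2-/- and a fall in CONV-Ern2-/- against COLONIZED-Ern2-/- passed as well. In CONV-Ern2-/- against CONV-WT the change of Mcm5 was -0.83 ± 0.33 (SE, adjusted p = 0.13), which did not pass.

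Mcm6 lies at chr1:128331590-128359664 on the minus strand (GRCm38). Mcm6 stood at 848, 1019 and 777 normalized counts for GF-WT, 2086, 1846 and 2269.5 for COLONIZED-WT and 2377, 1897 and 1656 for CONV-WT. Mcm6 stood at 1158, 1143 and 1091 (GF-Ern2-/-), 1961, 1956 and 2047 (COLONIZED-Ern2-/-) and 1392, 929 and 849.8 (CONV-Ern2-/-) for the other genotype. All CONV-Ern2-/- libraries were below all CONV-WT and COLONIZED libraries, and within a range that covered the GF-Ern2-/- libraries. Mcm6 rose in COLONIZED-WT against GF-WT (log2 fold change 1.24 ± 0.16, SE, adjusted p = 4.9e-13) and in COLONIZED-Ern2-/- against GF-Ern2-/- (0.81 ± 0.15, adjusted p = 2.4e-06). A rise in CONV-WT against GF-WT passed as well. Mcm6 fell in CONV-Ern2-/- against COLONIZED-Ern2-/- (log2 fold change -0.90 ± 0.22, SE, adjusted p = 0.0013). Its change between the CONV groups, -0.90 ± 0.29 (SE, adjusted p = 0.042), did not pass the threshold.

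Mcm4 lies at chr16:15623897-15637400 on the minus strand (GRCm38). Mcm4 stood at 380.3, 449 and 344 normalized counts for GF-WT, 941, 751 and 941 for COLONIZED-WT and 965, 764 and 509 for CONV-WT. Mcm4 stood at 509, 449 and 474 (GF-Ern2-/-), 852, 1116 and 954 (COLONIZED-Ern2-/-) and 679.8, 404 and 298 (CONV-Ern2-/-) for the other genotype. COLONIZED-Ern2-/- 2 was the highest library and CONV-Ern2-/- 3 the lowest. Mcm4 rose in COLONIZED-WT against GF-WT (log2 fold change 1.18 ± 0.17, SE, adjusted p = 4.8e-10) and in COLONIZED-Ern2-/- against GF-Ern2-/- (1.02 ± 0.19, adjusted p = 4.1e-06). Mcm4 fell in CONV-Ern2-/- against COLONIZED-Ern2-/- (log2 fold change -1.06 ± 0.30, SE, adjusted p = 0.0051).

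Mcm7 lies at chr5:138164583-138172422 on the minus strand (GRCm38). Mcm7 stood at 625, 800.0 and 533 normalized counts for GF-WT, 1693, 1409 and 1597 for COLONIZED-WT and 1528, 1398 and 1107 for CONV-WT. Mcm7 stood at 818, 928 and 739 (GF-Ern2-/-), 1369, 1296 and 1417 (COLONIZED-Ern2-/-) and 1123, 778 and 778 (CONV-Ern2-/-) for the other genotype. The COLONIZED and GF ranges did not overlap in either genotype. Mcm7 rose in COLONIZED-WT against GF-WT (log2 fold change 1.27 ± 0.18, SE, adjusted p = 1.8e-10), in CONV-WT against GF-WT (1.03 ± 0.24, adjusted p = 0.00048) and in COLONIZED-Ern2-/- against GF-Ern2-/- (0.71 ± 0.18, adjusted p = 0.0012). Exons of Mcm7 overlap in position with those of Ap4m1 and Cops6 on the opposite strand. Mcm2 rose in the same 3 comparisons, with log2 fold changes of 1.26 ± 0.19, 1.12 ± 0.30 and 0.96 ± 0.16.

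Per length of the longest coding transcript, the order of the 6 ring subunits was similar between groups. Their mean CPM per kilobase ran from 7.11 (Mcm4) to 14.4 (Mcm7) in GF-WT, from 16.7 (Mcm4) to 36.1 (Mcm7) in COLONIZED-WT and from 8.02 (Mcm4) to 18.8 (Mcm7) in CONV-Ern2-/-. Mcm4 had the lowest mean and Mcm7 the highest in each of these 3 groups. The same held in GF-Ern2-/- and COLONIZED-Ern2-/-. In CONV-WT Mcm4 was lowest too, but Mcm6 and Mcm7 both stood at 30.5.

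The loader and the later helicase factors changed as well. CDC6 is an ATPase that, with CDT1, places the ring on origins. Cdc6 lies at chr11:98907801-98923940 on the plus strand (GRCm38). Cdc6 stood at 69.9, 89 and 72.9 normalized counts for GF-WT, 302, 158 and 227 for COLONIZED-WT and 238, 173 and 215 for CONV-WT. Cdc6 stood at 73.1, 70.2 and 103 (GF-Ern2-/-), 248, 277 and 292 (COLONIZED-Ern2-/-) and 154, 120.0 and 93.8 (CONV-Ern2-/-) for the other genotype. The lowest COLONIZED or CONV-WT library was above the highest GF library, and the CONV-Ern2-/- libraries lay below the former and reached down into the GF-Ern2-/- range. Cdc6 rose in COLONIZED-WT against GF-WT (log2 fold change 1.58 ± 0.27, SE, adjusted p = 3.7e-07), in CONV-WT against GF-WT (1.42 ± 0.25, adjusted p = 7.9e-07) and in COLONIZED-Ern2-/- against GF-Ern2-/- (1.73 ± 0.25, adjusted p = 2.1e-09). Cdc6 fell in CONV-Ern2-/- against COLONIZED-Ern2-/- (log2 fold change -1.12 ± 0.26, SE, adjusted p = 0.00039). It had the highest fold change of the 44 in COLONIZED-Ern2-/- against GF-Ern2-/-.

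MCM10 is needed to fire the assembled helicase. Mcm10 lies at chr2:4989714-5012791 on the minus strand (GRCm38). Mcm10 stood at 199, 205 and 206 normalized counts for GF-WT, 554, 419 and 523 for COLONIZED-WT and 423, 452 and 394 for CONV-WT. Mcm10 stood at 254, 159 and 217 (GF-Ern2-/-), 548, 524 and 492 (COLONIZED-Ern2-/-) and 380.1, 335 and 279 (CONV-Ern2-/-) for the other genotype. The CONV-Ern2-/- libraries all lay above the GF libraries and below CONV-WT. Mcm10 rose in COLONIZED-WT against GF-WT (log2 fold change 1.30 ± 0.17, SE, adjusted p = 3.8e-12), in CONV-WT against GF-WT (1.05 ± 0.16, adjusted p = 3.2e-09) and in COLONIZED-Ern2-/- against GF-Ern2-/- (1.31 ± 0.23, adjusted p = 1.5e-06).

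Among the rest of the group, Gins1 and Gins2 encode parts of the GINS complex of the helicase. Gins2 stood at 131, 174 and 79.1 normalized counts for GF-WT, 247, 279 and 293 for COLONIZED-WT and 299.9, 315 and 312 for CONV-WT. Gins2 stood at 168, 159 and 138 (GF-Ern2-/-), 207, 217 and 219.7 (COLONIZED-Ern2-/-) and 142, 182 and 157 (CONV-Ern2-/-) for the other genotype. The highest CONV-Ern2-/- library was well below the lowest CONV-WT library, and near the highest GF library. Gins2 fell in CONV-Ern2-/- against CONV-WT (log2 fold change -0.95 ± 0.22, SE, adjusted p = 0.0012), and its rises in COLONIZED-WT and CONV-WT against GF-WT passed as well. Its exons overlap in position with those of Gse1 on the opposite strand. Cdt1 rose after colonization in both genotypes, with log2 fold changes of 1.10 ± 0.20 and 0.63 ± 0.18. Gmnn, whose product geminin holds CDT1 back after S phase has begun, passed in none of the 9 comparisons. Gmnn stood at 343, 424 and 304 normalized counts for GF-WT, 441, 443 and 502 for COLONIZED-WT and 389, 426 and 489 for CONV-WT. Gmnn stood at 377, 379 and 329 (GF-Ern2-/-), 424, 374 and 489 (COLONIZED-Ern2-/-) and 309, 389 and 348 (CONV-Ern2-/-) for the other genotype. The 18 levels spanned a narrow range, with COLONIZED-WT above GF-WT, and the log2 fold change between these was 0.38 ± 0.17 (SE, adjusted p = 0.087).

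**Figure D4:**
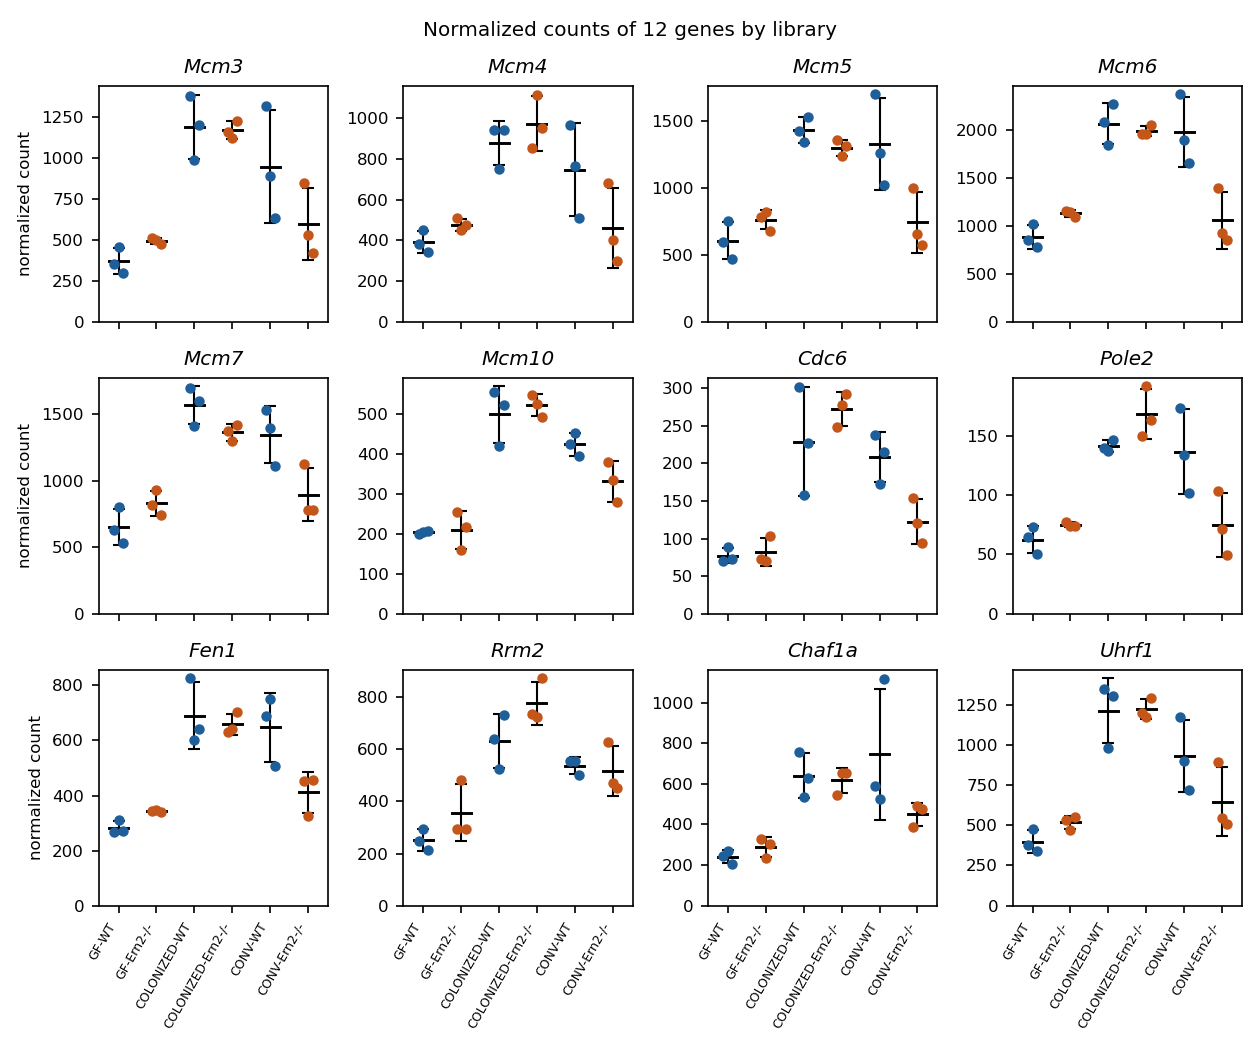
Normalized counts (vertical axes, each from 0) of the 12 genes called in the most comparisons, by group, with 1 point per library (blue WT, orange Ern2-/-) and bars at the mean ± SD (n = 3). In most panels the 2 GF groups are low, the COLONIZED groups and CONV-WT are high, and CONV-Ern2-/- lies between or with GF, as for Mcm6 at 850 to 1392.

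Of the 8 polymerase and primase genes, 7 rose in COLONIZED-WT against GF-WT (median log2 fold change 0.98), 4 in CONV-WT against GF-WT (0.82) and 5 in COLONIZED-Ern2-/- against GF-Ern2-/- (0.66). The shares of all genes that rose were 9.13%, 5.56% and 3.62%, in that order. Polymerase ε copies the leading strand, with Pole encoding its catalytic and Pole2 its second subunit. Pole2 lies at chr12:69201773-69228195 on the minus strand (GRCm38). Pole2 stood at 64.5, 72.9 and 50 normalized counts for GF-WT, 139.8, 137 and 147 for COLONIZED-WT and 174, 134 and 102 for CONV-WT. Pole2 stood at 77.6, 74.2 and 74 (GF-Ern2-/-), 150.2, 192 and 163 (COLONIZED-Ern2-/-) and 103, 71.1 and 49.7 (CONV-Ern2-/-) for the other genotype. COLONIZED libraries of both genotypes lay above all GF libraries, and CONV-Ern2-/- spread across the GF range and above it. Pole2 rose in COLONIZED-WT against GF-WT (log2 fold change 1.19 ± 0.23, SE, adjusted p = 6.5e-06), in CONV-WT against GF-WT (1.13 ± 0.31, adjusted p = 0.0039) and in COLONIZED-Ern2-/- against GF-Ern2-/- (1.16 ± 0.25, adjusted p = 0.00013). Pole2 fell in CONV-Ern2-/- against COLONIZED-Ern2-/- (log2 fold change -1.12 ± 0.32, SE, adjusted p = 0.0062). Its exons overlap in position with those of Gm49384 on the same strand.

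Pole lies at chr5:110286306-110337474 on the plus strand (GRCm38). Pole stood at 283, 319 and 196 normalized counts for GF-WT, 626, 505 and 724 for COLONIZED-WT and 583, 551 and 268 for CONV-WT. Pole stood at 362, 276 and 279 (GF-Ern2-/-), 559.6, 586 and 604 (COLONIZED-Ern2-/-) and 442, 298 and 223.5 (CONV-Ern2-/-) for the other genotype. CONV-WT 3 was in the GF range, while the other CONV-WT libraries were in the COLONIZED range. Pole rose in COLONIZED-WT against GF-WT (log2 fold change 1.23 ± 0.22, SE, adjusted p = 1.1e-06) and in COLONIZED-Ern2-/- against GF-Ern2-/- (0.92 ± 0.20, adjusted p = 0.00013). In CONV-WT against GF-WT its fold change was 0.81 ± 0.37 (SE, adjusted p = 0.12).

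Prim2 encodes the large subunit of primase, which starts each new strand with an RNA primer. Prim2 stood at 141, 172 and 135 normalized counts for GF-WT, 203, 214 and 262 for COLONIZED-WT and 253, 222 and 192 for CONV-WT. Prim2 stood at 207, 202 and 114 (GF-Ern2-/-), 225, 222 and 212 (COLONIZED-Ern2-/-) and 119, 111 and 93.8 (CONV-Ern2-/-) for the other genotype. The 3 CONV-Ern2-/- libraries were the 3 lowest of the CONV and COLONIZED libraries and lay below the lowest GF-WT library. Prim2 fell in CONV-Ern2-/- against CONV-WT (log2 fold change -1.03 ± 0.27, SE, adjusted p = 0.0046). Prim2 also fell in CONV-Ern2-/- against COLONIZED-Ern2-/- (adjusted p = 0.0006). In COLONIZED-WT against GF-WT it did not pass, at 0.61 ± 0.20 (SE, adjusted p = 0.012). Among the others, Pola2 and Pold2 (subunits of polymerases α and δ) rose in all 3 comparisons of microbes against GF named above, by log2 fold changes of 0.61 to 0.90. Pola1 rose in COLONIZED-WT against GF-WT alone of the 9 comparisons, by 0.69 ± 0.22, Prim1 rose after colonization in both genotypes, by 1.10 ± 0.23 and 0.68 ± 0.20, and Pold1 rose in COLONIZED-WT and CONV-WT against GF-WT, by 1.06 ± 0.20 and 0.84 ± 0.24.

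All 6 clamp and clamp loader genes rose in COLONIZED-WT against GF-WT (9.13% of all genes), with a median log2 fold change of 0.69, and 4 in CONV-WT against GF-WT (5.56%). In COLONIZED-Ern2-/- against GF-Ern2-/-, Rfc4 alone of the 6 passed (3.62% of all genes rose). None of their interaction terms for colonization passed, so the responses were not shown to differ. PCNA is the ring that holds the polymerase on DNA. Pcna stood at 803, 972 and 850.4 normalized counts for GF-WT, 1339, 1289.8 and 1530.5 for COLONIZED-WT and 1621, 1375 and 1143 for CONV-WT. Pcna stood at 967, 1326 and 913 (GF-Ern2-/-), 1494, 1475 and 1569.7 (COLONIZED-Ern2-/-) and 1084, 767 and 753 (CONV-Ern2-/-) for the other genotype. GF-Ern2-/- 2 reached the level of the COLONIZED-WT libraries. Pcna rose in COLONIZED-WT against GF-WT (log2 fold change 0.67 ± 0.14, SE, adjusted p = 4.6e-05). Pcna fell in CONV-Ern2-/- against COLONIZED-Ern2-/- (log2 fold change -0.79 ± 0.20, SE, adjusted p = 0.0019).

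RFC2 is 1 of the 5 loader subunits. Rfc2 lies at chr5:134581366-134601805 on the plus strand (GRCm38). Rfc2 stood at 600.0, 827 and 705 normalized counts for GF-WT, 1329.8, 1109 and 1378 for COLONIZED-WT and 1092, 1219 and 1839 for CONV-WT. Rfc2 stood at 695, 1049.9 and 787 (GF-Ern2-/-), 951, 998 and 1183.5 (COLONIZED-Ern2-/-) and 1411, 1311 and 1606 (CONV-Ern2-/-) for the other genotype. CONV-WT 3 had the highest level and the 3 CONV-Ern2-/- libraries were among the 6 highest. Rfc2 rose in COLONIZED-WT against GF-WT (log2 fold change 0.85 ± 0.17, SE, adjusted p = 1.5e-05) and in CONV-WT against GF-WT (0.95 ± 0.28, adjusted p = 0.0074). In CONV-Ern2-/- against CONV-WT its difference was 0.06 ± 0.27 (SE, adjusted p = 0.95). Its exons overlap in position with those of Lat2 on the opposite strand, and across libraries its level had an r of -0.63 with the log2 library total. Rfc3 had its lowest levels in CONV-Ern2-/-. Rfc3 stood at 237, 334 and 245 normalized counts for GF-WT, 416, 378 and 433 for COLONIZED-WT and 360.2, 391 and 369 for CONV-WT. Rfc3 stood at 348, 347 and 304 (GF-Ern2-/-), 381, 307 and 411 (COLONIZED-Ern2-/-) and 255, 204 and 185 (CONV-Ern2-/-) for the other genotype. All CONV-Ern2-/- libraries were below all GF-Ern2-/- libraries (13.1% of all genes), and all CONV-WT libraries above all GF-WT libraries (17.9%), and neither difference passed the test. Rfc3 rose in COLONIZED-WT against GF-WT (log2 fold change 0.60 ± 0.19, SE, adjusted p = 0.0082). Rfc1, Rfc4 and Rfc5 rose in COLONIZED-WT and CONV-WT against GF-WT, by 0.55 to 1.08 on the log2 scale.

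Of the 5 genes for single-stranded DNA and Okazaki fragments, 4 rose in COLONIZED-WT against GF-WT (9.13% of all genes) and the same 4 in CONV-WT against GF-WT (5.56%): Rpa1, Rpa2, Lig1 and Fen1. FEN1 is the nuclease that trims Okazaki fragments before DNA ligase 1 seals them. Fen1 lies at chr19:10199132-10204169 on the minus strand (GRCm38). Fen1 stood at 267, 312 and 271 normalized counts for GF-WT, 829, 602 and 641 for COLONIZED-WT and 687, 749.6 and 508 for CONV-WT. Fen1 stood at 343, 346 and 339 (GF-Ern2-/-), 631, 643 and 702 (COLONIZED-Ern2-/-) and 452, 327 and 458 (CONV-Ern2-/-) for the other genotype. Of the libraries with microbes, CONV-Ern2-/- 2 alone lay within the GF range, and all others lay above it. Fen1 rose in COLONIZED-WT against GF-WT (log2 fold change 1.29 ± 0.18, SE, adjusted p = 8.1e-11), in CONV-WT against GF-WT (1.19 ± 0.22, adjusted p = 4.8e-06) and in COLONIZED-Ern2-/- against GF-Ern2-/- (0.94 ± 0.17, adjusted p = 2.3e-06). Exons of Fen1 overlap in position with those of Tmem258 and Gm10143 on the opposite strand. Rpa3, the smallest subunit of the RPA complex that coats single-stranded DNA, passed in none of the 9 comparisons. Rpa3 stood at 286, 307 and 196 normalized counts for GF-WT, 229.6, 292 and 348 for COLONIZED-WT and 344, 412 and 169.8 for CONV-WT. Rpa3 stood at 342, 336 and 277 (GF-Ern2-/-), 355, 335 and 344 (COLONIZED-Ern2-/-) and 219, 253 and 248 (CONV-Ern2-/-) for the other genotype. The 3 WT groups overlapped, and CONV-WT held both the highest and the lowest library. COLONIZED-WT against GF-WT was 0.15 ± 0.23 (SE, adjusted p = 0.67), beside 0.63 ± 0.15 for Rpa1 and 1.20 ± 0.21 for Rpa2.

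All 5 genes of nucleotide supply rose in COLONIZED-WT against GF-WT (median log2 fold change 1.05), 3 in CONV-WT against GF-WT and 2 in COLONIZED-Ern2-/- against GF-Ern2-/-. The shares of all genes that rose were 9.13%, 5.56% and 3.62%, in that order. RRM2 is the regulatory subunit of ribonucleotide reductase, whose large subunit is RRM1. Rrm2 lies at chr12:24708241-24714146 on the plus strand (GRCm38). Rrm2 stood at 247, 296 and 214 normalized counts for GF-WT, 640.3, 524 and 731 for COLONIZED-WT and 556, 556 and 500.4 for CONV-WT. Rrm2 stood at 294, 483 and 295 (GF-Ern2-/-), 734, 724 and 873 (COLONIZED-Ern2-/-) and 628, 471 and 449.8 (CONV-Ern2-/-) for the other genotype. GF-Ern2-/- 2 was well above the other GF libraries, and CONV-Ern2-/- overlapped with CONV-WT. Rrm2 rose in COLONIZED-WT against GF-WT (log2 fold change 1.33 ± 0.19, SE, adjusted p = 6.2e-10), in CONV-WT against GF-WT (1.08 ± 0.20, adjusted p = 3.2e-06) and in COLONIZED-Ern2-/- against GF-Ern2-/- (1.11 ± 0.26, adjusted p = 0.00059). The large subunit fell in CONV-Ern2-/- against COLONIZED-Ern2-/-. Rrm1 stood at 936, 970.2 and 774 normalized counts for GF-WT, 1711, 1542.5 and 1914 for COLONIZED-WT and 1988, 1854 and 1015 for CONV-WT. Rrm1 stood at 978, 1065 and 917 (GF-Ern2-/-), 1739.5, 2056 and 1887 (COLONIZED-Ern2-/-) and 1230.2, 1098 and 808 (CONV-Ern2-/-) for the other genotype. CONV-WT 3 and the CONV-Ern2-/- libraries lay well below the COLONIZED libraries. Rrm1 rose in COLONIZED-Ern2-/- against GF-Ern2-/- (log2 fold change 0.94 ± 0.17, SE, adjusted p = 2.5e-06). Rrm1 fell in CONV-Ern2-/- against COLONIZED-Ern2-/- (log2 fold change -0.85 ± 0.20, SE, adjusted p = 0.00085). Tk1 (thymidine kinase) and Dut (dUTPase) rose in COLONIZED-WT and CONV-WT against GF-WT, by log2 fold changes of 1.05 to 1.13, and Tyms (thymidylate synthase) in COLONIZED-WT against GF-WT, by 0.61 ± 0.18.

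All 4 genes that copy chromatin and DNA methylation rose in COLONIZED-WT against GF-WT (median log2 fold change 1.25), where 9.13% of all genes rose. UHRF1 recognizes hemimethylated DNA and recruits the methyltransferase DNMT1. Uhrf1 lies at chr17:56303321-56323486 on the plus strand (GRCm38). Uhrf1 stood at 375, 478 and 342 normalized counts for GF-WT, 1349.8, 979.8 and 1303 for COLONIZED-WT and 1171, 899 and 721 for CONV-WT. Uhrf1 stood at 530.2, 471 and 551 (GF-Ern2-/-), 1197, 1176 and 1294 (COLONIZED-Ern2-/-) and 891, 547 and 505 (CONV-Ern2-/-) for the other genotype. COLONIZED libraries of both genotypes lay above all GF libraries, and CONV-Ern2-/- 2 and 3 lay within the GF-Ern2-/- range. Uhrf1 rose in COLONIZED-WT against GF-WT (log2 fold change 1.61 ± 0.19, SE, adjusted p = 1.1e-14), in CONV-WT against GF-WT (1.22 ± 0.27, adjusted p = 0.00015) and in COLONIZED-Ern2-/- against GF-Ern2-/- (1.24 ± 0.17, adjusted p = 3.5e-11). Uhrf1 fell in CONV-Ern2-/- against COLONIZED-Ern2-/- (log2 fold change -0.90 ± 0.25, SE, adjusted p = 0.0039). Dnmt1 rose in COLONIZED-WT against GF-WT, by 0.82 ± 0.18, and its lowest value of all was in CONV-Ern2-/- 3. Dnmt1 stood at 1496.5, 1472.5 and 1047 normalized counts for GF-WT, 2457, 2062 and 2522 for COLONIZED-WT and 2392, 1839 and 908 for CONV-WT. Dnmt1 stood at 1686, 1082 and 1382 (GF-Ern2-/-), 2182, 2366 and 2013 (COLONIZED-Ern2-/-) and 1819, 1022 and 814 (CONV-Ern2-/-) for the other genotype. CONV-WT 3 was below all GF libraries, and the CONV-WT against GF-WT fold change was 0.35 ± 0.39 (SE, adjusted p = 0.59).

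Chaf1a and Chaf1b encode subunits of CAF-1, which puts histones on new DNA. Chaf1a lies at chr17:56040439-56072289 on the plus strand (GRCm38). Chaf1a stood at 245, 269.7 and 206 normalized counts for GF-WT, 756, 538 and 629 for COLONIZED-WT and 592, 526 and 1118 for CONV-WT. Chaf1a stood at 330.4, 234 and 305 (GF-Ern2-/-), 547, 653 and 655 (COLONIZED-Ern2-/-) and 386, 491 and 477 (CONV-Ern2-/-) for the other genotype. CONV-WT 3 was well above every other library. Chaf1a rose in COLONIZED-WT against GF-WT (log2 fold change 1.43 ± 0.19, SE, adjusted p = 8.6e-12) and in COLONIZED-Ern2-/- against GF-Ern2-/- (1.09 ± 0.21, adjusted p = 2.3e-05). A rise in CONV-WT against GF-WT passed as well. Chaf1b stood at 219, 251 and 169 normalized counts for GF-WT, 511, 400.3 and 428 for COLONIZED-WT and 451, 432 and 383 for CONV-WT. Chaf1b stood at 261, 284 and 217 (GF-Ern2-/-), 351, 346 and 422 (COLONIZED-Ern2-/-) and 258, 204 and 223.5 (CONV-Ern2-/-) for the other genotype. The CONV-Ern2-/- libraries lay in the GF range and below all CONV-WT and COLONIZED libraries. Chaf1b fell in CONV-Ern2-/- against CONV-WT (log2 fold change -0.88 ± 0.22, SE, adjusted p = 0.0032), and its rises in COLONIZED-WT and CONV-WT against GF-WT passed as well.

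Of the 4 drivers of the G1/S transition, 3 rose in COLONIZED-WT against GF-WT (9.13% of all genes), 2 in CONV-WT against GF-WT (5.56%) and 1 in COLONIZED-Ern2-/- against GF-Ern2-/- (3.62%). E2F1 and E2F2 are activators among the E2F factors. E2f1 lies at chr2:154559407-154569892 on the minus strand (GRCm38). E2f1 stood at 94.5, 116 and 65.3 normalized counts for GF-WT, 304, 247 and 294 for COLONIZED-WT and 282, 189 and 294 for CONV-WT. E2f1 stood at 147, 138 and 119.9 (GF-Ern2-/-), 221, 195 and 248 (COLONIZED-Ern2-/-) and 149, 151 and 185 (CONV-Ern2-/-) for the other genotype. The GF-WT libraries lay below all other libraries. E2f1 rose in COLONIZED-WT against GF-WT (log2 fold change 1.63 ± 0.24, SE, adjusted p = 9.1e-10) and in CONV-WT against GF-WT (1.46 ± 0.33, adjusted p = 0.00019). In COLONIZED-Ern2-/- against GF-Ern2-/- the change was 0.71 ± 0.23 (SE, adjusted p = 0.023), and the interaction term for colonization was -0.91 ± 0.31 (SE, adjusted p = 0.84), so the responses were not shown to differ. E2f2 was highest in CONV-Ern2-/- 3 and CONV-WT 3, both of low total. E2f2 stood at 535, 529 and 323 normalized counts for GF-WT, 794, 967 and 987 for COLONIZED-WT and 770.4, 742 and 1291 for CONV-WT. E2f2 stood at 817, 741 and 595 (GF-Ern2-/-), 1124, 1096 and 987 (COLONIZED-Ern2-/-) and 959.7, 1142 and 1341 (CONV-Ern2-/-) for the other genotype. It rose in COLONIZED-WT against GF-WT, by 1.00 ± 0.21, and its r with the log2 library total was -0.60.

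Ccne1 and Ccne2 encode the E-type cyclins, which activate CDK2. Ccne1 stood at 59.2, 84.8 and 77.8 normalized counts for GF-WT, 137, 131 and 167 for COLONIZED-WT and 193, 175 and 78.5 for CONV-WT. Ccne1 stood at 71.6, 46.1 and 94.8 (GF-Ern2-/-), 145, 165 and 174 (COLONIZED-Ern2-/-) and 132, 64.4 and 96.6 (CONV-Ern2-/-) for the other genotype. Ccne1 overlapped between the CONV groups but not between GF and COLONIZED in either genotype. Ccne1 rose in COLONIZED-WT against GF-WT (log2 fold change 0.98 ± 0.24, SE, adjusted p = 0.00047) and in COLONIZED-Ern2-/- against GF-Ern2-/- (1.18 ± 0.32, adjusted p = 0.0033). Ccne2 stood at 74.5, 54.6 and 40.3 normalized counts for GF-WT, 85.6, 73.5 and 81 for COLONIZED-WT and 148, 166 and 104 for CONV-WT. Ccne2 stood at 58.9, 81.2 and 87.5 (GF-Ern2-/-), 112.5, 281 and 152 (COLONIZED-Ern2-/-) and 86.7, 131 and 80 (CONV-Ern2-/-) for the other genotype. COLONIZED-Ern2-/- 2 was far above every other library for Ccne2, while GF-WT and COLONIZED-WT overlapped. Ccne2 rose in CONV-WT against GF-WT (log2 fold change 1.30 ± 0.34, SE, adjusted p = 0.0022). In COLONIZED-Ern2-/- against COLONIZED-WT the change was 1.18 ± 0.32 (SE, adjusted p = 0.014). Exons of Ccne2 overlap in position with those of Ints8 on the opposite strand.

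**Figure D5:**
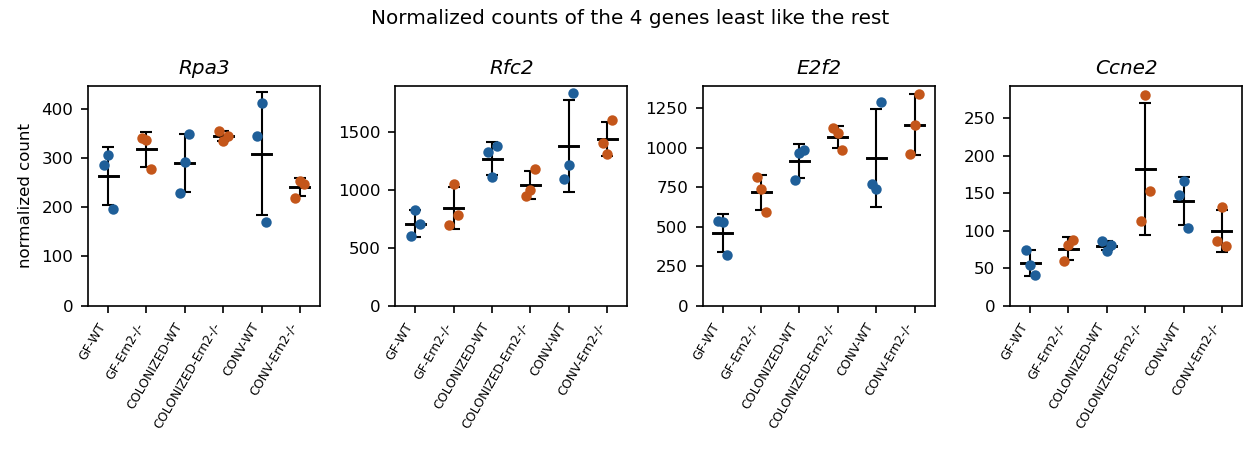
Normalized counts (vertical axes, each from 0) of the 4 genes whose levels followed the other members least, Rpa3, Rfc2, E2f2 and Ccne2, by group, with 1 point per library (blue WT, orange Ern2-/-) and bars at the mean ± SD (n = 3). Rfc2 and E2f2 do not drop in CONV-Ern2-/-, and 1 COLONIZED-Ern2-/- library stands at 281 for Ccne2.

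Counted over the 9 comparisons, 6 genes passed in 4 (Mcm3, Mcm5, Mcm6, Cdc6, Pole2 and Uhrf1), 13 in 3, 17 in 2, 6 in 1, and 2 (Gmnn and Rpa3) in none.

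Other genes of the pathway were counted as well. The list of 40 further replication genes included origin recognition and checkpoint factors. Of these 40, 21 rose and none fell in COLONIZED-WT against GF-WT (median log2 fold change 0.67), 13 rose in CONV-WT against GF-WT (0.71), and 15 in COLONIZED-Ern2-/- against GF-Ern2-/- (0.46). The shares of all genes that rose were 9.13%, 5.56% and 3.62%, in that order. None of the origin recognition genes Orc1 to Orc6 passed in COLONIZED-WT against GF-WT (DESeq2, lowest adjusted p = 0.013, Orc6). Orc6 rose in CONV-WT against GF-WT (DESeq2, adjusted p = 0.00013). Cdc45, which joins the ring and GINS in the active helicase, had log2 fold changes of 1.23 ± 0.26 (SE) after colonization of WT and 1.07 ± 0.22 in Ern2-/- (adjusted p = 5.7e-05 and 4.2e-05). In CONV-Ern2-/- against COLONIZED-Ern2-/-, 10 of the 40 fell and 1 rose (Pold4), where 3.62% of all genes fell and 4.75% rose. In CONV-Ern2-/- against CONV-WT none of the 40 passed, with 36 negative and a median of -0.30. An unadjusted p under 0.05 was reached there by 9 lower (DESeq2, 9.11% of all genes) and 1 higher (7.82%). Of 24 G1/S regulators, 8 rose and 2 fell in COLONIZED-WT against GF-WT (9.13% of all genes rose and 8.75% fell), and 6 rose and 1 fell in COLONIZED-Ern2-/- against GF-Ern2-/- (3.62% and 3.6%). Ccnd1 (cyclin D1) rose by 1.58 ± 0.17 and 1.74 ± 0.28, with adjusted p of 6.1e-18 and 5.1e-08. Cdkn1a, which encodes the cell cycle inhibitor p21, fell by 1.505 ± 0.29 and 1.53 ± 0.15 (adjusted p = 8.4e-06 and 4.9e-21), and rose by 1.52 ± 0.26 in CONV-Ern2-/- against COLONIZED-Ern2-/- (adjusted p = 4.4e-07). It did not pass in CONV-WT against GF-WT, at -0.53 ± 0.56 (DESeq2, adjusted p = 0.57). Of the other Cdkn genes on the list, Cdkn2c rose in COLONIZED-WT against GF-WT by 0.59 ± 0.17 (DESeq2, adjusted p = 0.0052). Cdkn1b and Cdkn1c did not pass there.

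Genes of mitosis, the phase after replication, rose after colonization too. Of 15 such genes, 15 rose in COLONIZED-WT against GF-WT (median log2 fold change 0.87), 14 in COLONIZED-Ern2-/- against GF-Ern2-/- (1.00) and 6 in CONV-WT against GF-WT (0.78), and 7 fell in CONV-Ern2-/- against COLONIZED-Ern2-/- (-0.69). The shares of all genes tested were 9.13%, 3.62% and 5.56% higher and 3.62% lower, in that order. Mki67, a marker of cycling cells, had a log2 fold change of 0.93 ± 0.23 after colonization of WT and 1.36 ± 0.34 in Ern2-/- (adjusted p = 0.00045 and 0.0013). Summed CPM of the mitosis genes were 921, 724 and 482 in GF-WT against 1400, 1286 and 1398 in COLONIZED-WT, and 860, 449 and 742 in GF-Ern2-/- against 1587, 1736 and 1486 in COLONIZED-Ern2-/-. The sums did not overlap between GF and COLONIZED in either genotype. In CONV-Ern2-/- against CONV-WT none of the 15 passed. All 15 were negative there (median -0.43), and 7 had an unadjusted p under 0.05 (DESeq2, 9.11% of all genes lower). Mki67 was -0.32 ± 0.52 (SE, DESeq2, adjusted p = 0.83). These sums overlapped, at 1040, 833 and 751 in CONV-Ern2-/- beside 1476, 1484 and 863 in CONV-WT.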

How the data were processed

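RNA was measured in 18 libraries of mouse colon crypt epithelium, prepared by the authors with a stranded mRNA kit. The deposited values are raw counts per gene, which the authors made with STAR on mm10; tool versions, gene models and whether counting used strand are not given in the sources used here. Library totals ranged from 5865619 to 23154481 counts, and the lowest count of any member was 18.

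Groups were taken from the labels. Each of 9 pairwise comparisons was fitted on its own 6 libraries, and 2 interaction tests on 12, with DESeq2 1.42.0 (R 4.3.3; Wald test, default size factors and filtering, no shrinkage). The threshold for calling a gene was 0.01 on the Benjamini-Hochberg adjusted p over all genes tested (2-sided). edgeR 4.0.16 (quasi-likelihood) was run as an alternative. Normalized counts are counts divided by DESeq2 size factors over all 18 libraries. CPM are counts divided by the library total and scaled alike in all libraries.

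The members, their roles and the gene lists were chosen with earlier results of these data known. Genes named with their values were up to 12 called in the most comparisons, and the member of each of 7 roles with the smallest adjusted p; further members were named after their values were seen. The other alternatives were TMM size factors, a low-count filter (10 counts in 3 libraries), no independent filtering, a fit on all 18 libraries, covariates for sex (Y-linked transcripts above 10 CPM) or library total, a replicate block and leaving out each library. Chosen after seeing the data were leaving out the 3 libraries of low total and leaving out both GF libraries with WT-like Ern2. In data simulated for COLONIZED-WT against GF-WT (17242 genes, 200 changed), DESeq2 recovered 80% of 2-fold and 100% of 4-fold changes with 20 false among 200 calls, and edgeR recovered 153 with 6 false. For CONV-Ern2-/- against COLONIZED-Ern2-/- (16959 genes) DESeq2 recovered 64% and 98% with 12 false, and edgeR 25% and 90%. For the COLONIZED interaction (17912 genes) DESeq2 recovered 30% and 90% with 17 false, and edgeR 5% and 73%. Exons of 13 members overlap in position with those of another gene, whose reads the counting could have split.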

Additional observations from a re-analysis of the deposited data

Results flagged for a closer look

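Rfc3, a subunit of the clamp loader, is given here because its groups separated in opposite directions between GF and CONV in the 2 genotypes, although neither comparison passed by DESeq2 (log2 fold change 0.45, adjusted p = 0.14 in WT, and -0.63, adjusted p = 0.12 in Ern2-/-). All 3 CONV-WT libraries lay above all 3 GF-WT libraries (17.9% of all genes), and all 3 CONV-Ern2-/- libraries lay below all 3 GF-Ern2-/- libraries (13.1%). The interaction term was -1.07 on the log2 scale (DESeq2, adjusted p = 0.033), which does not pass the threshold of 0.01.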

How the results depend on the processing

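Counts of members called are given here where an alternative moved them by over 1.5 times or from 0, with the range on leaving out 1 library. With TMM size factors, a low-count filter or no independent filtering no count moved that far. COLONIZED-WT against GF-WT (40) gave 26 with edgeR, 12 with a sex covariate, and 35 to 40 without 1 library. CONV-WT against GF-WT (29) gave 0 with edgeR, with or without its filter, 16 with a library total covariate, 13 with a sex covariate, and 10 to 38 without 1 library. COLONIZED-Ern2-/- against GF-Ern2-/- (21) gave 2 with edgeR, 6 without its filter, and 13 to 23 without 1 library. CONV-Ern2-/- against COLONIZED-Ern2-/- (10) gave 0 with edgeR, with or without its filter, 0 with a library total or a sex covariate, 0 without the 3 libraries of low total (CONV-Ern2-/- then has 1 library), and 0 to 23 without 1 library. CONV-Ern2-/- against CONV-WT (3) gave 12 when fitted on all 18 libraries, 0 with edgeR, with or without its filter, 0 with a sex covariate, 1 without the libraries of low total (again 1 CONV-Ern2-/- library), and 0 to 6 without 1 library. Of comparisons with 0 calls, CONV-Ern2-/- against GF-Ern2-/- gave 2 on all 18 libraries and 0 to 1 without 1 library, CONV-WT against COLONIZED-WT gave 1 without the libraries of low total and 0 to 1 without 1 library, and COLONIZED-Ern2-/- against COLONIZED-WT gave 0 to 1 without 1 library. The CONV interaction (0) gave 1 with a library total covariate, 1 without both GF libraries of WT-like Ern2 (GF-Ern2-/- is then 1 library, assumed to vary like the other groups), and 0 to 3 without 1 library. The cause of these shifts was not tested.

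Replicate numbers are shared between groups, and not every pair of libraries of one number deviated together: 21 of 45 such pairs had a correlation over 0.1 (lowest -0.44, median 0.09), against 26 of 90 pairs of different numbers (median -0.05). Pairs of number 1 reached 0.63, and not every library correlated best with its own number, so the numbers were not used as pairs. With a replicate block the count was 38 for COLONIZED-WT against GF-WT, 0 for CONV-Ern2-/- against CONV-WT and 3 for the CONV interaction. No named gene reversed: of the alternative values of named genes, 592 kept their side of the threshold and 161 did not.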
